A study of Mus musculus with 11 samples.

Results

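Glycogen synthesis and breakdown genes were followed in mRNA that was bound to the ribosomes of mouse hippocampal astrocytes in 3 dietary states. They are 9 of the 20259 genes measured: the 3 glycogen phosphorylases Pygm, Pygb and Pygl, the synthase Gys1, the primer protein Gyg, the branching enzyme Gbe1, the targeting protein Ppp1r3c and the phosphorylase kinase subunits Phka1 and Phkg1. The genes were listed by name for their known role, with earlier results of these data known. Each took the probe set that the platform annotation pairs with its symbol alone. Only Pygb had several such sets, and the one with the highest mean over the arrays was used. On the ketogenic diet Phka1 and Pygm were lower than in fed mice, with log2 fold changes of -0.93 and -0.67. Both passed the main test over all genes, though neither did in some of the alternatives given below. After a fast none of the 9 passed against fed mice, and neither did any other of the 20259 genes.

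The mice carried the Ribo-Tag transgene, an epitope tag on a ribosomal protein that Cre recombinase switches on, together with Aldh1l1-Cre, which acts in astrocytes. All groups shared this genotype. The arrays hold 4 fed samples (standard chow), 3 fasted samples and 4 samples of mice on a ketogenic diet, which is high in fat and low in carbohydrate. Mice ate chow or the ketogenic diet over 4 weeks. For the fast the treatment label states 18 h and the diet label 24 h. The labels and the study's methods name the hippocampus, while its results speak of forebrain astrocytes for the arrays. The labels number the samples as separate biological samples without saying which animals they came from, and they give neither the strain nor the age, so a p-value measures only the spread between these samples.

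Glycogen is the glucose store of the brain and lies almost wholly in astrocytes. Glycogenin starts a chain, glycogen synthase extends it and the branching enzyme adds side branches, while glycogen phosphorylase cuts glucose units off as glucose 1-phosphate. Phosphorylase is switched on when phosphorylase kinase phosphorylates it, in answer to calcium and to hormones that raise cyclic AMP, and protein phosphatase 1, brought to glycogen by targeting proteins such as that of Ppp1r3c, reverses this step and activates the synthase. Astrocytes hold both the muscle and the brain form of phosphorylase.

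Values are RMA values read as log2, with 1 unit for each doubling of the signal. As a reading of genes without expression, the 862 measured odorant receptor genes, which belong to the nose, had a 95th percentile of 3.96. All 9 glycogen genes lay above it on 11 of 11 arrays, although Pygl and Gbe1, with means of 4.44 each over all arrays, lay close to it. Groups were compared in limma with the means of the 3 diets fitted to all 11 arrays, and p-values were adjusted over 20259 genes (Benjamini-Hochberg) with a threshold of 0.05. Array 2 of the fed group and array 2 of the fasted group differed most from the rest (limma weights of 0.251 and 0.458 against 1.03 to 1.43 elsewhere), and results are given without both where they matter. By their means over the 11 arrays, all 20 measured astrocyte markers lay above the odorant receptor level, though Gja1, at 3.82 on the ketogenic arrays, did not in that group. The mean of the 20 was 8.16 to 8.29 on the fed arrays, 8.08 to 8.26 on the fasted arrays and 7.66 to 7.91 on the ketogenic arrays.

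**Figure D1:**
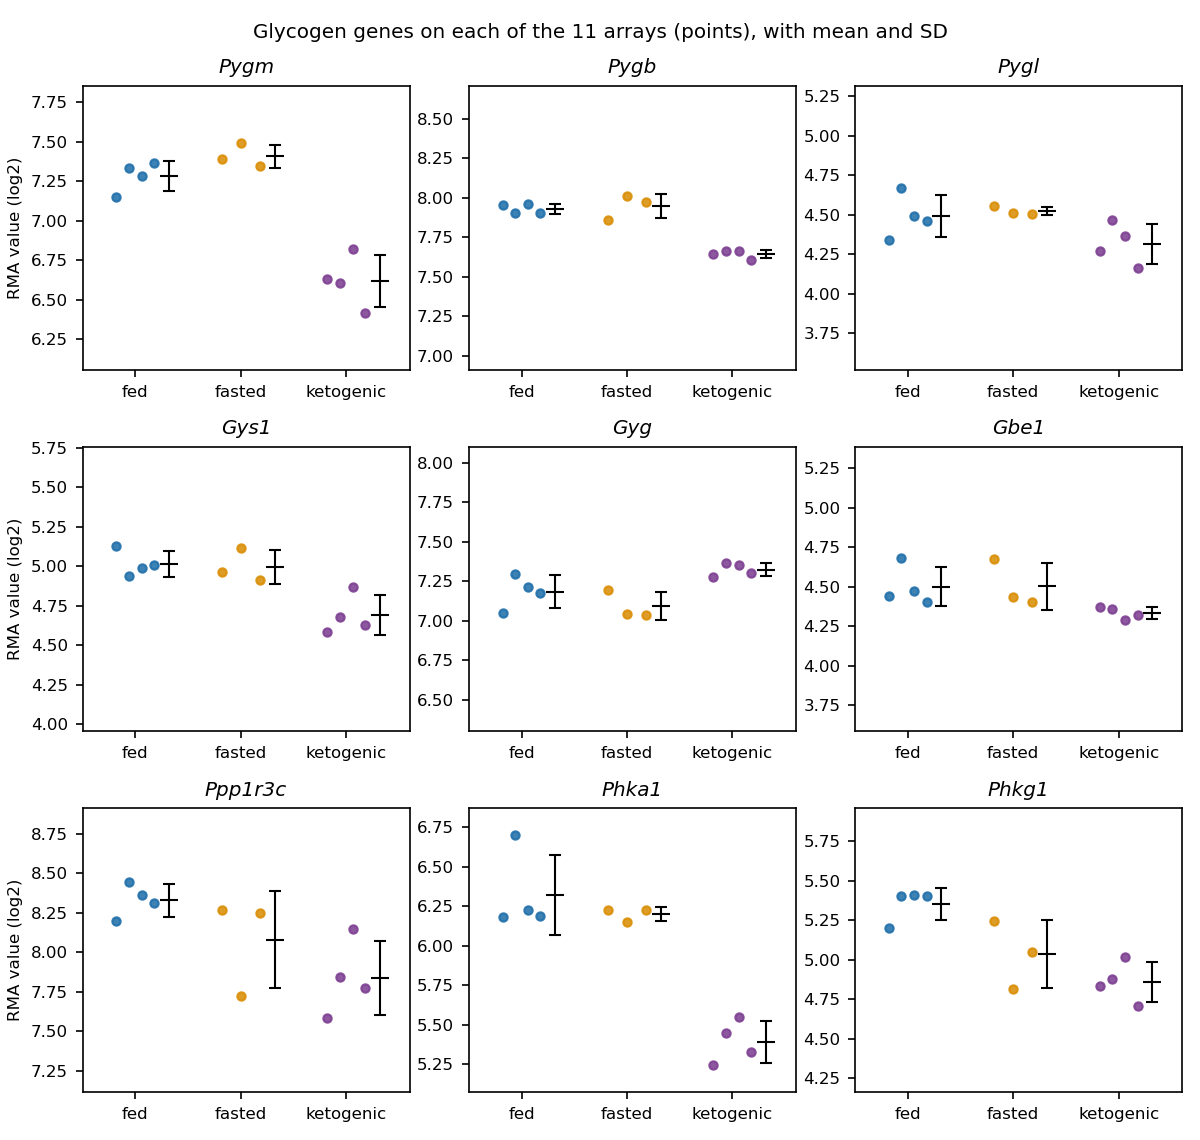
RMA value (log2, y axis) of each glycogen gene on every array (points) by diet, with the mean and SD of each group beside the points; each panel has its own y axis, and all panels span the same number of log2 units. The 4 ketogenic arrays of Phka1 (5.24 to 5.55) and Pygm (6.42 to 6.82) lie below all fed and fasted arrays.

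Of the phosphorylases, Pygm, the muscle form, was lower on the ketogenic diet. Pygm (probe set 6867859) read 7.15, 7.33, 7.28 and 7.37 on the 4 fed arrays, 7.39, 7.49 and 7.35 on the 3 fasted arrays and 6.63, 6.61, 6.82 and 6.42 on the 4 ketogenic arrays. The ketogenic arrays did not overlap with the fed or the fasted arrays, whereas the fed and fasted arrays overlapped with each other. The group means were 7.28 ± 0.10 (SD, n = 4) fed, 7.41 ± 0.07 (SD, n = 3) fasted and 6.62 ± 0.16 (SD, n = 4) ketogenic. Against fed mice the ketogenic log2 fold change was -0.67 (standard error, SE, 0.09, 95% confidence interval -0.87 to -0.47, adjusted p = 0.0141 from limma), so that Pygm was 1.59-fold higher in fed mice. Pygm ranked 165 of 20259 genes by the size of the fall and 21 by p.

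Pygb, the brain form of phosphorylase, lay lower on the ketogenic arrays by a smaller amount and with little spread. It read 7.96, 7.90, 7.96 and 7.90 on the fed arrays, 7.86, 8.01 and 7.97 on the fasted arrays and 7.65, 7.66, 7.66 and 7.61 on the ketogenic arrays. The ketogenic arrays again lay below all others, and the log2 fold change against fed mice was -0.29 (SE 0.06, unadjusted p = 0.000622, adjusted p = 0.0603 from limma), which did not pass. With the median over the 3 Pygb sets in place of the highest one it was 0.02, and the other sets lay near the odorant receptor level, with fed means of 3.00 and 4.08. Pygl, the liver form, ranged from 4.34 to 4.67 on the fed arrays, from 4.50 to 4.55 on the fasted and from 4.16 to 4.46 on the ketogenic arrays. Its ketogenic values overlapped with the fed values, and its log2 fold change was -0.18 (adjusted p = 0.403).

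A subunit of the kinase that activates phosphorylase gave the lowest log2 fold change of the 9 genes. Phka1 encodes the muscle form of the alpha subunit, which regulates phosphorylase kinase. It read 6.18, 6.70, 6.22 and 6.18 on the fed arrays, 6.23, 6.15 and 6.23 on the fasted arrays and 5.24, 5.45, 5.55 and 5.33 on the ketogenic arrays. All ketogenic arrays lay below all other arrays, and fed array 2 stood above the other fed arrays. The group means were 6.32 ± 0.25 (SD, n = 4) fed, 6.20 ± 0.05 (SD, n = 3) fasted and 5.39 ± 0.13 (SD, n = 4) ketogenic. Against fed mice the ketogenic log2 fold change was -0.93 (SE 0.12, 95% confidence interval -1.19 to -0.67, adjusted p = 0.0138 from limma), a 1.91-fold higher level in fed mice. Phka1 ranked 45 of 20259 genes by the size of the fall and 9 by p.

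Phkg1, the muscle form of the catalytic subunit of the same kinase, read 5.20, 5.40, 5.41 and 5.40 on the fed arrays, 5.25, 4.82 and 5.05 on the fasted arrays and 4.83, 4.88, 5.02 and 4.71 on the ketogenic arrays. The fed arrays lay above all ketogenic arrays, with the fasted arrays between and overlapping with both. Its ketogenic log2 fold change was -0.50 (SE 0.10, unadjusted p = 0.000557, adjusted p = 0.0575 from limma), which did not pass. A further probe set is shared by Phkg1 and the neighbouring entry Sumf2, and its means were 6.75 ± 0.12 fed (SD, n = 4) and 6.56 ± 0.11 ketogenic (SD, n = 4).

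On the side of synthesis no gene passed the test. Gys1, the glycogen synthase of muscle and brain, read 5.13, 4.94, 4.99 and 5.004 on the fed arrays, 4.96, 5.12 and 4.91 on the fasted arrays and 4.58, 4.68, 4.87 and 4.63 on the ketogenic arrays. The ketogenic arrays lay below both other groups, with a log2 fold change against fed mice of -0.32 (SE 0.08, unadjusted p = 0.0025, adjusted p = 0.112 from limma). Ppp1r3c, which brings protein phosphatase 1 to glycogen, read 8.19, 8.44, 8.36 and 8.31 on the fed arrays, 8.27, 7.72 and 8.25 on the fasted arrays and 7.58, 7.84, 8.15 and 7.77 on the ketogenic arrays. The fed and ketogenic arrays did not overlap, but the ketogenic arrays were widely spread, and the log2 fold change of -0.49 (SE 0.14, adjusted p = 0.152) did not pass. Gbe1, the branching enzyme, ranged from 4.40 to 4.68 on the fed arrays, from 4.40 to 4.67 on the fasted and from 4.29 to 4.37 on the ketogenic arrays (log2 fold change -0.17, adjusted p = 0.412). Gyg, the glycogenin on which each new chain starts, was the only gene of the 9 with a positive log2 fold change. It read 7.05, 7.30, 7.22 and 7.17 on the fed arrays, 7.20, 7.04 and 7.04 on the fasted arrays and 7.28, 7.36, 7.35 and 7.30 on the ketogenic arrays. The fed and ketogenic arrays of Gyg overlapped, and the log2 fold change was 0.14 (adjusted p = 0.423).

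Counted together, 2 of the 9 genes passed the test as lower on the ketogenic diet, where 0.765% of all genes did. At an unadjusted p under 0.05, 6 of the 9 were lower, against 6.53% of all genes. The fed and ketogenic arrays did not overlap for 7 of the 9, all lower on the ketogenic diet as deposited, against 4.74% of all genes (centring each array on its astrocyte markers adds 0.48 to the value of every gene and makes Pygb, Gys1 and Gbe1 of these 7 positive). The median log2 fold change of the 9 genes was -0.32 and that of all genes tested was 0.01. These genes share the arrays and are not independent of each other. They were listed with earlier results of these data known, so the shares are a description only.

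**Figure D2:**
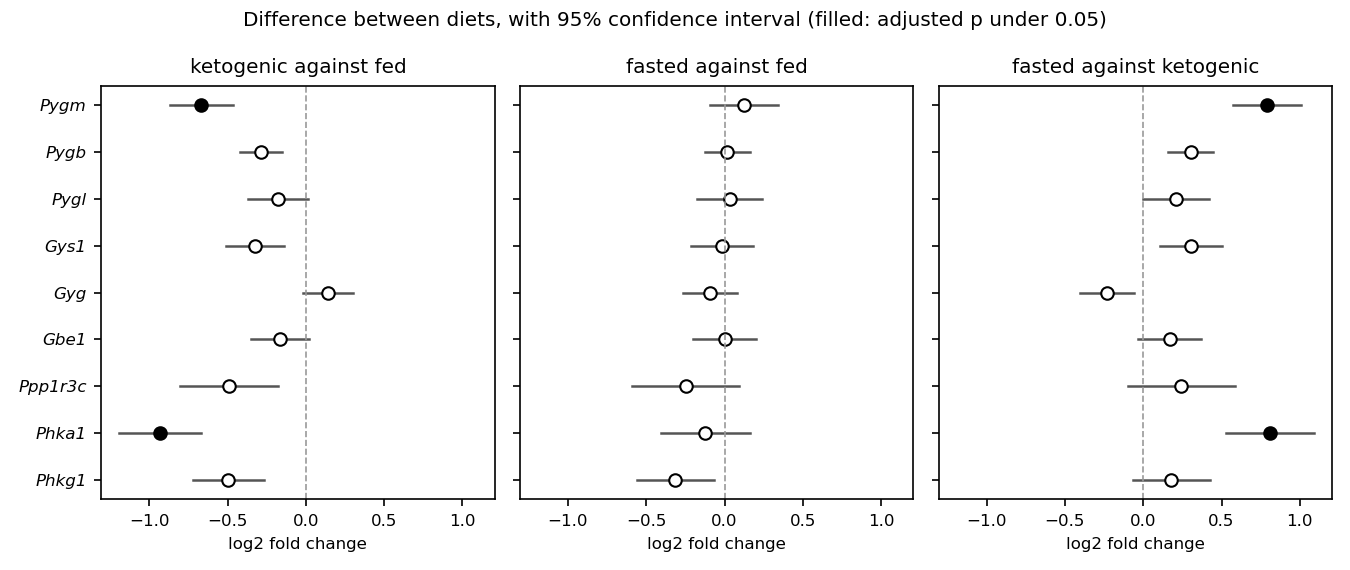
Difference between 2 diets (log2 fold change, x axis) for each glycogen gene, with its 95% confidence interval from limma; filled points have an adjusted p under 0.05. Pygm and Phka1 are filled in both comparisons with the ketogenic arrays, and no gene is filled between fasted and fed arrays.

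These calls rest on few arrays. Leaving out each array in turn, Pygm was called lower on the ketogenic diet in 5 of 8 fits and Phka1 in 5 of 8, with log2 fold changes of -0.73 to -0.60 and of -0.98 to -0.80. For both genes the call was lost without ketogenic array 1, 2 or 4, with an adjusted p of up to 0.0691. Without fed array 2 and fasted array 2 both genes kept their call, with log2 fold changes of -0.65 for Pygm (adjusted p = 0.0307) and -0.80 for Phka1 (adjusted p = 0.0117). With the methods' t-test, adjusted over all genes, neither gene passed against fed mice (adjusted p = 0.0899 for Pygm and 0.102 for Phka1) or against fasted mice (0.143 and 0.102).

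The fast gave smaller differences. None of the 9 genes passed the test between fasted and fed mice, where 0% of all genes did in limma, and none passed with the methods' t-test after the same adjustment. At an unadjusted p under 0.05 there was 1 gene, against 7.07% of all genes, and for 0 of the 9 did the fed and fasted arrays lie apart, against 6.43% of all genes. That gene was Phkg1, at -0.32 on the log2 scale (SE 0.11, unadjusted p = 0.0164, adjusted p = 0.657 from limma). Ppp1r3c had one of -0.25 (adjusted p = 0.773), with fasted array 2 at 7.72 and the other fasted arrays at 8.25 and 8.27. For Pygm it was 0.12 (95% confidence interval -0.09 to 0.34) and for Phka1 -0.12 (-0.41 to 0.16). The 5 other genes lay between -0.09 and 0.03, and the median of the 9 was -0.02, equal to that of all genes tested. The intervals of Pygm and Phka1 leave room for changes of up to 1.27-fold and 1.32-fold, in the direction of a rise for Pygm and of a fall for Phka1.

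Set against the ketogenic arrays, the fasted arrays were higher for the same pair of genes, in a comparison that shares the ketogenic arrays with the one above. Pygm was 1.73-fold higher after fasting (log2 fold change 0.79, SE 0.10, 95% confidence interval 0.57 to 1.01, adjusted p = 0.0115 from limma). Phka1 was 1.75-fold higher (log2 fold change 0.81, SE 0.13, 95% confidence interval 0.53 to 1.09, adjusted p = 0.0346). Thus 2 of the 9 genes passed as higher after fasting, against 0.222% of all genes, 4 at an unadjusted p under 0.05 (4.19% of all genes), and for 6 the groups did not overlap (4.78% of all genes).

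The other 7 genes did not pass between fasted and ketogenic mice. Pygb (0.30, adjusted p = 0.0968) and Gys1 (0.31, adjusted p = 0.246) had the next lowest unadjusted p among genes with a positive log2 fold change. For Gyg the order was turned round, with all 3 fasted arrays below all 4 ketogenic arrays (log2 fold change -0.23, unadjusted p = 0.0135, adjusted p = 0.321 from limma). Leaving out each array in turn kept the call of Pygm in 3 of 7 fits (lost without fasted array 1 or 3 or ketogenic array 1 or 2) and that of Phka1 in 1 of 7, the fit without ketogenic array 3. Over these fits the log2 fold changes ran from 0.72 to 0.86 and from 0.76 to 0.86, and the highest adjusted p was 0.156.

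Markers of astrocytes moved with these genes. All 20 measured astrocyte markers had a negative log2 fold change on the ketogenic diet, with a median of -0.42. Of these, 8 passed the test as lower (0.765% of all genes), among them Aldh1l1 itself (-0.73, adjusted p = 0.0138 from limma), whose regulatory sequence drives the Cre. Fasted against ketogenic, all 20 were positive (median 0.42), and 5 passed as higher (0.222% of all genes). Neuron markers had a median of 0.10 on the ketogenic diet (16 measured, 0 passed), with 12 positive and 4 negative. At an unadjusted p under 0.05 from limma, 5 were higher (7.39% of all genes) and 1 lower (6.53%). Their mean was 8.12 to 8.16 on the fed, 8.15 to 8.36 on the fasted and 8.25 to 8.27 on the ketogenic arrays. Oligodendrocyte markers had a median of -0.27 (12 measured, 11 negative, 0 passed), and 6 were lower at an unadjusted p under 0.05 from limma (6.53% of all genes). Microglia markers had a median of 0.15 (11 measured, 0 passed). For endothelial and mural markers the median was -0.35 (12 measured, 1 passed as lower). Ependymal and choroid plexus markers had a median of -0.03 (7 measured, 0 passed), with 2 lower at an unadjusted p under 0.05. Fewer ribosomes from astrocytes in a pull-down and less of each mRNA per astrocyte cannot be told apart in such samples, and no array of unpurified tissue was used here. Since the muscle forms of phosphorylase and its kinase led the list, 7 measured markers of skeletal muscle were read too: 1 lay below the odorant receptor level by its mean over all arrays, their mean was 4.23 to 4.50 on the fed arrays and 4.29 to 4.49 on the ketogenic arrays, and none passed the test.

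**Figure D3:**
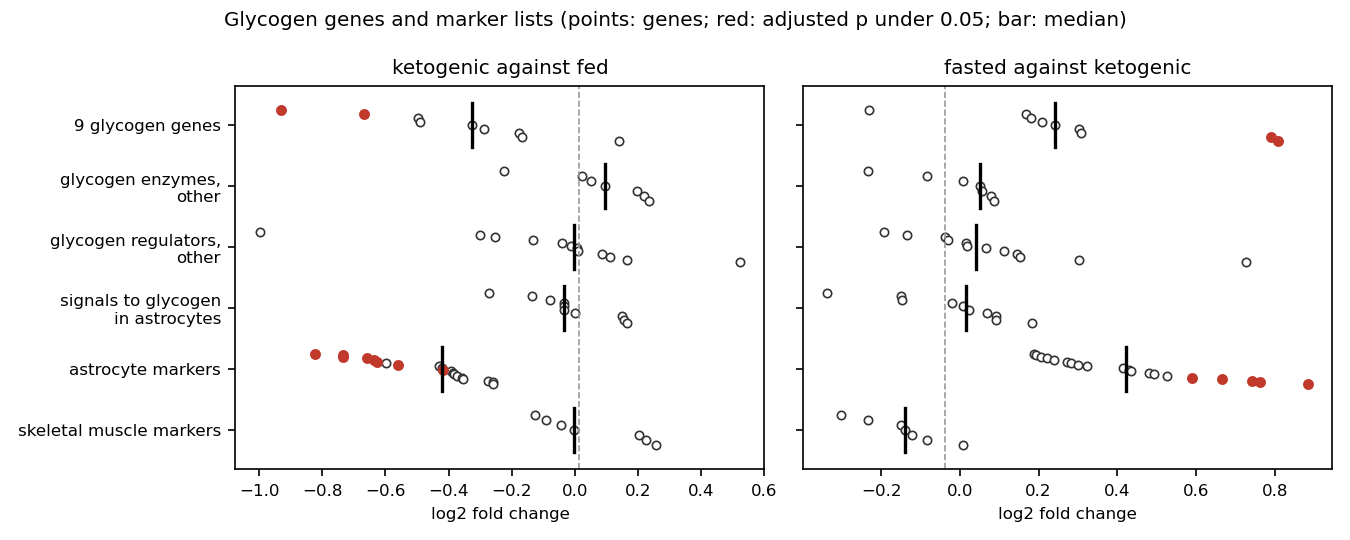
Log2 fold change (x axis) of each gene (points) of the 9 glycogen genes, of other genes of the pathway and of 2 marker lists, in both comparisons with the ketogenic arrays; red points have an adjusted p under 0.05, bars are medians and the dashed line is the median of all genes tested. The medians of the 9 glycogen genes (-0.32 and 0.24) and of the astrocyte markers (-0.42 and 0.42) lie to the same side of the dashed line as deposited, and those of the 3 other glycogen lists lie within 0.10 of 0.

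Expressed relative to the astrocyte markers of the same array, the 9 genes parted. Centring each array on the mean of its 20 astrocyte markers added 0.48 to every log2 fold change on the ketogenic diet, which put the median of all genes at 0.50. Phka1 still passed as lower (-0.45, adjusted p = 0.00392 from limma), as did 0.247% of all genes. This centring uses only the mean of the markers, whose own log2 fold changes as deposited ran from -0.82 to -0.26. Pygm (-0.67) lay within that range and Phka1 (-0.93) below it. Without fed array 2 and fasted array 2 Phka1 was at -0.80, a fit for which the marker range is not given. Measured from the marker mean, Phka1 lay at -2.08 to -1.56 on the fed arrays and at -2.42 to -2.32 on the ketogenic arrays, which did not overlap. The value of -1.56 was that of fed array 2, and the other fed arrays lay at -1.98, -2.07 and -2.08. This scaling was not fitted without fed array 2. Pygm lay at -1.01 to -0.90 on the fed and at -1.29 to -1.03 on the ketogenic arrays, again without overlap, but the difference of -0.18 no longer passed (adjusted p = 0.0996).

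Ppp1r3c and Phkg1 had centred log2 fold changes of -0.01 each (SE 0.11 and 0.09), having lain lower by about the same amount as the markers. The other 5 genes were positive, as the added shift makes most genes. Under this scaling 82.4% of all genes passed as higher, so the calls of Gyg (0.62), Pygl (0.31) and Gbe1 (0.32) restate the scaling, and of these only Gyg lay above the median of all genes. Pygb (0.20) and Gys1 (0.16) did not pass. Between fasted and ketogenic mice Pygm (0.36, adjusted p = 0.0106) and Phka1 (0.38, adjusted p = 0.0164) passed as higher after fasting under this scaling too, as did 0.202% of all genes. The part of the astrocyte markers in the lower Pygm and Phka1 was not tested beyond these values.

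**Figure D4:**
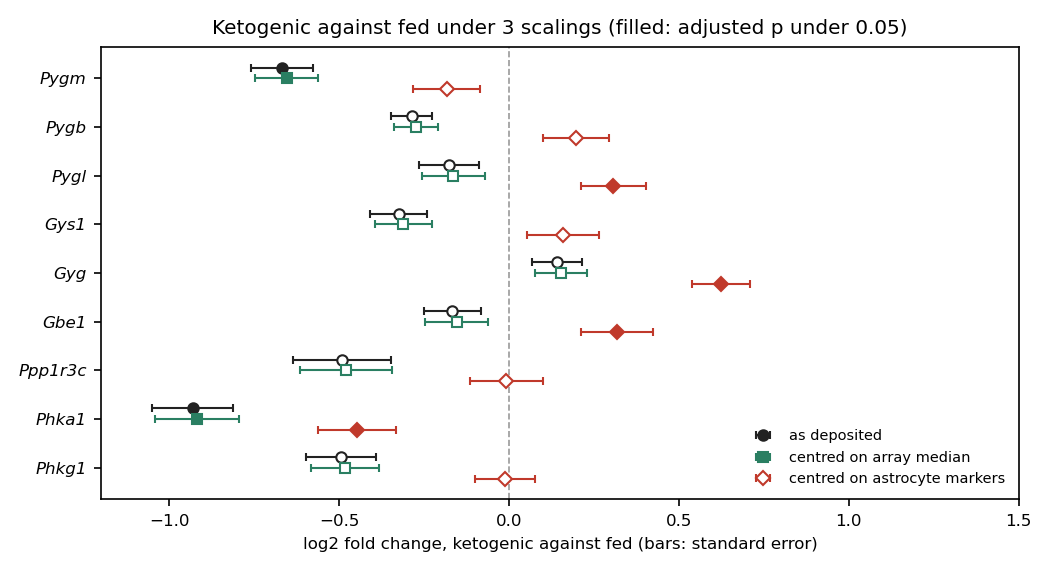
Log2 fold change on the ketogenic diet against fed mice (x axis, bars show the standard error) of each glycogen gene as deposited (circles), with each array centred on its median over all genes (squares) and with each array centred on its 20 astrocyte markers (diamonds); filled symbols have an adjusted p under 0.05. Under the third scaling Phka1 stays lower, and Pygb, Pygl, Gys1 and Gbe1 change from negative to positive values, since it adds 0.48 to each.

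Array by array, the glycogen genes differed in how they followed the astrocyte markers. Over the 11 arrays the correlation with the marker mean was 0.94 for Phka1, 0.92 for Pygm, 0.88 for Pygb, 0.86 for Ppp1r3c, 0.84 for Phkg1, 0.83 for Gys1, 0.74 for Pygl, 0.65 for Gbe1 and -0.56 for Gyg. After the mean of each diet was taken out it was 0.95 for Ppp1r3c and 0.87 for Phkg1, against 0.59 for Gyg, 0.49 for Phka1, 0.46 for Pygl, 0.44 for Pygm, 0.12 for Gbe1, 0.09 for Gys1 and -0.27 for Pygb. These are descriptions over arrays that share their mRNA and their normalization.

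**Figure D5:**
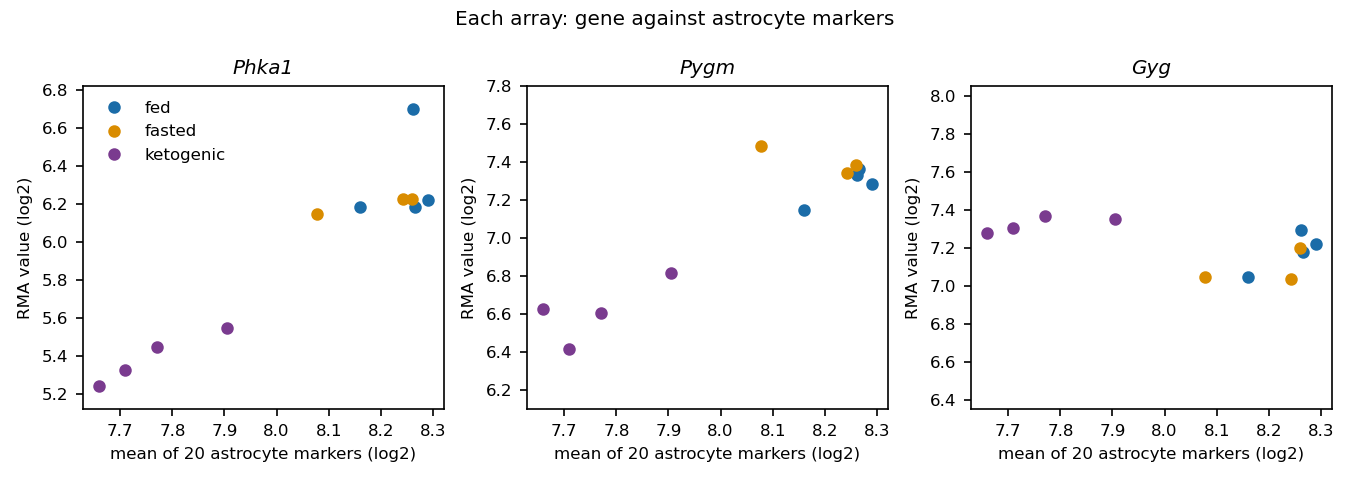
RMA value (log2, y axis) of Phka1, Pygm and Gyg against the mean of 20 astrocyte markers (log2, x axis) on each array, coloured by diet. The 4 ketogenic arrays lie at the left, at 7.66 to 7.91, with low Phka1 and Pygm values, and Gyg is not low there.

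The other genes of the pathway gave no call in any comparison. They were listed as 10 enzymes, 17 regulators and 15 genes of signalling, of which 7, 12 and 10 had a probe set of their own and the rest were not analysed here. At an unadjusted p under 0.05 on the ketogenic diet, 1 enzyme was lower, 1 regulator higher and 2 lower, and 1 signalling gene lower, where 6.53% of all genes were lower and 7.39% higher. Of the 7 glycogen enzymes outside the 9 genes, 6 had a positive log2 fold change on the ketogenic diet and the median was 0.10, but Gys2 and Stbd1, both among the 6, lay below the odorant receptor level. Ugp2, which makes the UDP-glucose that synthase uses, had the lowest p there (-0.22, adjusted p = 0.229 from limma), followed by Epm2a, the glycogen phosphatase laforin (0.23, adjusted p = 0.377). After fasting their values against fed mice were -0.17 and 0.24. Between fasted and ketogenic mice the lowest p in this list belonged to Pgm2l1, which makes glucose 1,6-bisphosphate (-0.23, adjusted p = 0.529), and to Nhlrc1, the ubiquitin ligase malin (-0.08, adjusted p = 0.86).

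Among the 12 measured regulators the median was -0.00 on the ketogenic diet, with 6 genes on either side of 0. The largest single value of the pathway lay here: Ppp1r3d, another subunit that takes protein phosphatase 1 to glycogen, had a mean of 6.80 on the fed, 6.52 on the fasted and 5.80 on the ketogenic arrays. Its log2 fold change against fed mice was -0.999 with an SE of 0.23 (unadjusted p = 0.00119, adjusted p = 0.0804 from limma), and the fed and ketogenic arrays did not overlap. Phkb, the beta subunit of phosphorylase kinase, had a smaller but tighter difference of -0.25 (SE 0.06, unadjusted p = 0.000827, adjusted p = 0.0689), also without overlap. Phka2 and Phkg2, the other forms of the alpha and catalytic subunits, were not lower. Their log2 fold changes were 0.006 (SE 0.07, adjusted p = 0.979) and 0.11 (SE 0.08, adjusted p = 0.586 from limma). Fasted against ketogenic, Ppp1r3d (0.73, adjusted p = 0.326) and Ppp1r3b, the targeting subunit known from liver (0.30, adjusted p = 0.335), had the lowest p. Between fasted and fed mice Ppp1r3b (0.29, adjusted p = 0.666) and Phkb (-0.14, adjusted p = 0.692) did.

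Receptors and kinases that carry signals to glycogen in astrocytes had medians of -0.03 on the ketogenic diet and -0.00 after fasting over 10 measured genes. Adcyap1r1, the receptor of the peptide PACAP, had the lowest p on the ketogenic diet (-0.27, adjusted p = 0.139 from limma). Vipr1, a receptor of vasoactive intestinal peptide, which sets off glycogen breakdown in astrocytes, came next (0.16, adjusted p = 0.367). Vipr1 also had the lowest p after fasting (-0.18 against fed mice, adjusted p = 0.692), where Adcyap1r1 was at -0.09. Fasted against ketogenic, Vipr1 had a log2 fold change of -0.34 (unadjusted p = 0.00116, adjusted p = 0.119) and Adcyap1r1 one of 0.18 (adjusted p = 0.464).

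The genes whose values most resembled Pygm over the 11 arrays were looked up among 13217 others above the odorant receptor level. The highest Pearson correlations were those of Ptgds, the prostaglandin D synthase (0.986), Idh2, the mitochondrial NADP-dependent isocitrate dehydrogenase (0.980), Ezr, the membrane linker ezrin (0.978), Cbs, the cystathionine beta-synthase (0.973), and Acot11, an acyl-CoA thioesterase (0.973). Like Pygm, these genes were low on the ketogenic arrays, with log2 fold changes against fed mice from -0.77 for Acot11 to -0.42 for Idh2. Among the glycogen genes Pygb came nearest to Pygm (0.93, rank 33), ahead of Phka1 (0.91, rank 65) and Gys1 (0.87, rank 139), while Gyg ran the other way (-0.68). With the mean of each diet taken out the order was another, with Pygl at 0.58, Phkg1 at 0.46, Gys1 at 0.41, Phka1 at 0.35 and Pygb at 0.20. The likeness is given as a description over 11 arrays of 3 diets.

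Promoters of the 9 glycogen genes were read for short motifs. The sequences of Pygm and Phka1 are shown because these genes were called, and that of Pygb because it is the brain form of the enzyme that Pygm encodes. They are the 250 bases before the annotated start from RefSeq (GRCm38.p6), on the strand of the gene, with the E-box CAGCTG, known from genes of muscle, in capitals. Pygm lies at chr19:6384158-6384407 on the + strand, Phka1 at chrX:102644247-102644496 on the - strand and Pygb at chr2:150786546-150786795 on the + strand.
Pygm: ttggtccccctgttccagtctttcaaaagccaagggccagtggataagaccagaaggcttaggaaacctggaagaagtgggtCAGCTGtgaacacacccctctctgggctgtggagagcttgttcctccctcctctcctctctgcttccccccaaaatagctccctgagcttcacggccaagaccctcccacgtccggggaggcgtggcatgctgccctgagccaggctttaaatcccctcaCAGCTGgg
Phka1: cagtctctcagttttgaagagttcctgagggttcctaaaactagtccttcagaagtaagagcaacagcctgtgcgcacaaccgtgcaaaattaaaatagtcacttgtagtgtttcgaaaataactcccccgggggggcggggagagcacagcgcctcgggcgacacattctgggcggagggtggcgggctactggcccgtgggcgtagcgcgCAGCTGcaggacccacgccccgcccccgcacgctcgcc
Pygb: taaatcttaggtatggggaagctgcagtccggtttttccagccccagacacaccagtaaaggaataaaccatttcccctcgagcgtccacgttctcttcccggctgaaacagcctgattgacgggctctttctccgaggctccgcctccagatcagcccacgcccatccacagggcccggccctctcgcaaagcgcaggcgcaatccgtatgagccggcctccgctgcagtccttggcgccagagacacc

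With positions counted from the start, the first base of CAGCTG stood at -168 and -8 in Pygm and at -38 in Phka1, and the motif was not found in Pygb. Searched on both strands from 250 bases before to 50 bases after the start, it was found in 4 of the 9 genes (Pygm, Phka1, Gys1 and Ppp1r3c) and in 16.3% of 32851 RefSeq promoters of that length. Pygm and Gys1 held it more than once, as did 1.90% of promoters. This motif was chosen after the promoters of these genes had been read and it had been noticed there, so its share is a description only and lends no weight to any result.

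The other motifs searched were CACGTG, found in 2 of the 9 genes (7.15% of promoters), CCAAT in 3 (37.4%), AGAACA in 1 (19.0%) and TGACGTCA in 0 (1.79%). No matches of different motifs overlapped in these genes. Gyg and Ppp1r3c held CACGTG, and Gys1, Phkg1 and Ppp1r3c held CCAAT. A match shows that the letters are there, not that a factor binds.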

How the data were processed

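mRNA from ribosome pull-downs of 11 samples was amplified with a NuGEN Pico kit and, after biotin labelling, hybridised to Affymetrix mouse exon arrays. The authors normalised the arrays with RMA in Partek, and the deposited values are log2 values per probe set (lowest 0.856, highest 13.6). The log base is not given in the sources used here and was taken from RMA. The submitters' processing notes name mm9, and no array coordinates are given here. No scanner files or scan dates were used, so array batches were not checked. Of 115830 probe sets, 25539 were paired with 1 symbol, 2300 with several and 87991 with none in the platform annotation, and each of 20259 genes kept its brightest set (by mean).

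Groups were compared in limma 3.58.1 (R 4.3.3) on 1 model of 3 diet means over the 11 arrays, with moderated variances and Benjamini-Hochberg adjustment over all genes at a threshold of 0.05. The procedure was tried on simulated data with independent normal noise, of the same spread for a gene on every array. That trial does not cover arrays that differ from the rest or a shift shared by many genes. The unpaired, two-tailed test that the study names for its data in general, and not for the arrays in particular, is called the methods' t-test here. Alternatives were array weights, only the arrays compared, the replicate number as a block, centring each array on its median or on its astrocyte markers, the median over the sets of a gene, only genes above the odorant receptor level, the methods' t-test, leaving out each array in turn, and leaving out fed array 2 and fasted array 2. Centring on the median over all probe sets was added after seeing the data.

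The glycogen genes, the pathway lists and the marker lists were chosen with earlier results of these data known. Values on every array are given for glycogen genes that passed the threshold or had an unadjusted p under 0.05 in any comparison, and ranges for the rest. Other pathway genes were named if they passed, or if they had the lowest or second lowest p of their list in a comparison. Phka2 and Phkg2 were named besides, as the other forms of Phka1 and Phkg1. The number of arrays limits the precision of every value.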

Additional observations from a re-analysis of the deposited data

Results flagged for a closer look

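Among 18 groups of 4 arrays (9 genes, fed and ketogenic), 2 held an array far from the others by Dixon's test, which chance does in about 1 of 20 groups. Phka1 read 6.70 on fed array 2, against 6.18 to 6.22 on the other fed arrays. Without that array and fasted array 2 the ketogenic log2 fold change of Phka1 was -0.80 in place of -0.93. Phkg1 read 5.20 on fed array 1, against 5.40 to 5.41 on the other fed arrays, and this value lay above all 4 ketogenic arrays.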

How the results depend on the processing

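With the replicate number as a block, 0 of the 9 glycogen genes passed on the ketogenic diet against fed mice (1 gene of all genes) and 0 against fasted mice (6 of all genes), with adjusted p of 0.0587 for Pygm and 0.0575 for Phka1 in the first comparison. Deviations from the group means correlated at -0.12 to 0.18 over 10 pairs of samples of the same number, 2 of them over 0.1. Over 30 other pairs the correlations ran from -0.19 to 0.12, with 3 over 0.1. The highest was that of fed array 2 and fasted array 2, which differed most from the rest. The labels do not pair the samples and the main fit took no pairs, but whether the numbers pair them was not settled.

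For the ketogenic diet against fed mice the count of glycogen genes was 2, of all genes 179 (24 higher, 155 lower). It became 4 of 387 genes with array weights, 4 of 282 with genes above the odorant receptor level alone, (Pygb and Phkg1 were added in both), and 1 of 12 with the methods' t-test, where the 1 gene was Pygb. All genes numbered 79 with only the 2 groups compared and 71 when arrays were centred on the median over all probe sets. Centred on the astrocyte markers, 4 glycogen genes passed (3 higher, 1 lower) with 16743 of all genes (16693 higher, 50 lower), a shift that the scaling itself makes. Between fasted and ketogenic mice all genes numbered 57 (45 higher, 12 lower), against 188 with array weights, 34 with 2 groups only, 88 above the odorant receptor level, 6 with the methods' t-test (0 glycogen genes), 31 with the centring over all probe sets and 15684 with 5 glycogen genes (2 higher, 3 lower) under the astrocyte centring. At its threshold without adjustment the methods' t-test gave 8 glycogen genes of 2760 genes on the ketogenic diet against fed mice, 1 of 1033 after fasting and 6 of 2580 between fasted and ketogenic mice. Between fasted and fed mice 1 gene passed without fed array 2 and fasted array 2.

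Leaving out each array in turn gave 0 to 2 glycogen genes and 1 to 170 of all genes for the ketogenic diet against fed mice, 0 glycogen genes and 0 to 1 of all genes after fasting, and 0 to 2 and 8 to 61 between fasted and ketogenic mice.

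Some signs turned. On the ketogenic diet Pygb was 0.0155 with the median over its sets, and under the astrocyte centring Pygb was 0.20, Pygl 0.31, Gys1 0.16 and Gbe1 0.32. Between fasted and ketogenic mice that centring gave Pygb -0.13, Pygl -0.22, Gys1 -0.13, Gbe1 -0.26, Ppp1r3c -0.19 and Phkg1 -0.25. After fasting only values near 0 turned: Pygb -0.00337 with array weights and -0.0229 without fed array 2 and fasted array 2, Gbe1 -0.0152 with the block, Gys1 0.00428 with median centring, 0.0107 with centring over all probe sets and 0.0333 under the astrocyte centring, and Phka1 0.0296 without both arrays. Leaving out single arrays gave -0.0139 to 0.0598 for Pygb, -0.0185 to 0.0910 for Pygl, -0.0781 to 0.0250 for Gys1, -0.0828 to 0.0629 for Gbe1 and -0.169 to 0.00341 for Phka1. The turns under the astrocyte centring follow from the shift it adds to every gene, 0.48 on the ketogenic diet against fed mice, 0.05 after fasting and -0.43 between fasted and ketogenic mice. The cause of the others was not tested.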
